A study of Mus musculus with 8 samples.

Results

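The 46 genes described here code for proteins of peroxisomes and of fatty acid oxidation, and were followed in mouse epidermis with and without an epidermal deletion of *Rora*. They were taken by gene symbol from the 55416 rows of the gene count table, with each Ensembl identifier matched to its symbol in the GENCODE mouse annotation. Of the 46 genes, 28 were grouped as peroxisomal (13 oxidation enzymes, 3 ABC transporters and 12 peroxins) and 18 as mitochondrial (5 of the carnitine shuttle, 10 enzymes of β-oxidation and 3 of electron transfer to the respiratory chain). The ABC transporters include *Abcd4*, a member of their family that acts in cobalamin transport from lysosomes. All 46 were in the table, and 45 were among the 13147 genes with enough counts to test. The exception was *Abcd2*, a transporter of very-long-chain acyl-CoA, which had between 0 and 8 counts per library.

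RNA-seq was done on epidermis peeled from the back skin of mouse pups at postnatal day 4, with 4 libraries of each genotype. The mutant pups (RoraEKO) came from crosses of mice with *Rora* flox/flox alleles and mice with a *K14-Cre* transgene, in which the keratin 14 promoter drives Cre in basal keratinocytes and their descendants, and their libraries carry the label epidermis *Rora* knockout. The other 4 libraries are labelled WT and are called controls here. The labels do not say whether these pups carried floxed alleles or Cre. Libraries are named by the letter and number of their titles, which are A1, B1, C1 and C6 for controls and A3, B4, C2 and C3 for RoraEKO. The labels do not explain the letters and do not say that each library came from its own pup, so that the p-values below measure the spread between these libraries. RORα is a nuclear receptor of the epidermis, and the study asked which genes depend on it there.

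Fatty acids are broken down in both compartments. Mitochondria take up acyl chains through the carnitine shuttle and oxidise them to acetyl-CoA, passing electrons to the respiratory chain through the electron transfer flavoprotein. Peroxisomes take acyl-CoA in through ABC transporters and shorten very long and branched chains, in β-oxidation that begins with an acyl-CoA oxidase which makes hydrogen peroxide and in α-oxidation of 3-methyl-branched and 2-hydroxy acids, while catalase breaks the peroxide down. Peroxins are the proteins that build the organelle and import its enzymes, and the epidermal barrier is made of lipids with very long acyl chains.

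Library totals ran from 17286903 to 26705533 counts, and 3 counts corresponded to between 0.113 and 0.196 CPM (counts relative to library size, after TMM scaling). Ratios of RoraEKO to control are given on the log2 scale with their standard error (SE). *Rora* itself, on chromosome 9, was at 212 ± 66.6 CPM in controls and 196 ± 34.6 CPM in RoraEKO (SD, n = 4 each), with a log2 ratio of -0.11 (SE 0.245, quasi-likelihood adjusted p = 0.877 in edgeR), so that its gene-level count did not separate the genotypes. Counts per gene do not resolve the deleted exons. *Xist*, the X-inactivation transcript, reached 416 CPM in control C1 and 527 CPM in control C6 but did not exceed 0.0546 CPM elsewhere, so that all 4 RoraEKO libraries and only 2 of the 4 controls lacked it, and sex and genotype were partly confounded. The summed markers of spinous keratinocytes (4 genes) were at 37600 to 64600 CPM in controls and 79700 to 100000 CPM in RoraEKO without overlap, the 4 erythroid markers at 31.8 to 216 and 83.6 to 666 CPM, and the 3 melanocyte markers at 22.7 to 47.7 and 13.5 to 27.7 CPM with *Pmel* not overlapping, although no tested marker of the 12 cell type lists passed the cutoffs. The spinous sum was nearly all *Krt1* (19700 to 38600 CPM in controls and 44200 to 52400 in RoraEKO) and *Krt10* (17200 to 27500 and 34200 to 46200), whereas the desmosomal genes *Dsg1a* (576 to 1140 and 780 to 1070) and *Dsc1* (188 to 374 and 239 to 500) overlapped between genotypes. The part of these shifts in the results below was not tested. The 4 granular keratinocyte genes were at 6210 to 10400 CPM in sum in every library, carried by *Flg*, *Loricrin* and *Ivl*, while the other one, *Krt2*, was near absent at 0.0411 to 1.28 CPM and was not tested. The 5 adipocyte genes did not exceed 1.75 CPM and the 5 dermal fibroblast genes did not exceed 9.44 CPM. In bulk tissue, fewer cells of a type and less RNA per cell cannot be told apart.

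Among the 45 genes tested, 3 were lower in RoraEKO by both cutoffs, an adjusted p (Benjamini-Hochberg) of 0.05 and a 1.5-fold change, and these were *Acox3*, *Cat* and *Hacl1*, all enzymes of the peroxisomal matrix. The 3 made up 6.67% of the genes tested, where 3.22% of all 13147 genes were called lower. *Pex5*, the import receptor that carries most matrix enzymes into the peroxisome, was the only one called higher, which is 2.22% where 2.3% of all genes were called higher. The genotypes did not overlap in 7 genes or 15.6%, beside 12.9% of all genes, so that this share was near the background. The median log2 ratio of the 45 genes was -0.06, beside -0.04 over all genes, and 39 of them stayed within the 1.5-fold cutoff in either direction. Of the 27 peroxisomal genes tested, 3 were lower and 1 higher, whereas none of the 18 mitochondrial genes was called in either direction. In the edgeR quasi-likelihood test 3 of the 18 had an unadjusted p under 0.05, beside 2390 of all 13147 genes. With DESeq2 none of the 18 was called. The difference between the compartments was not tested.

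**Figure D1:**
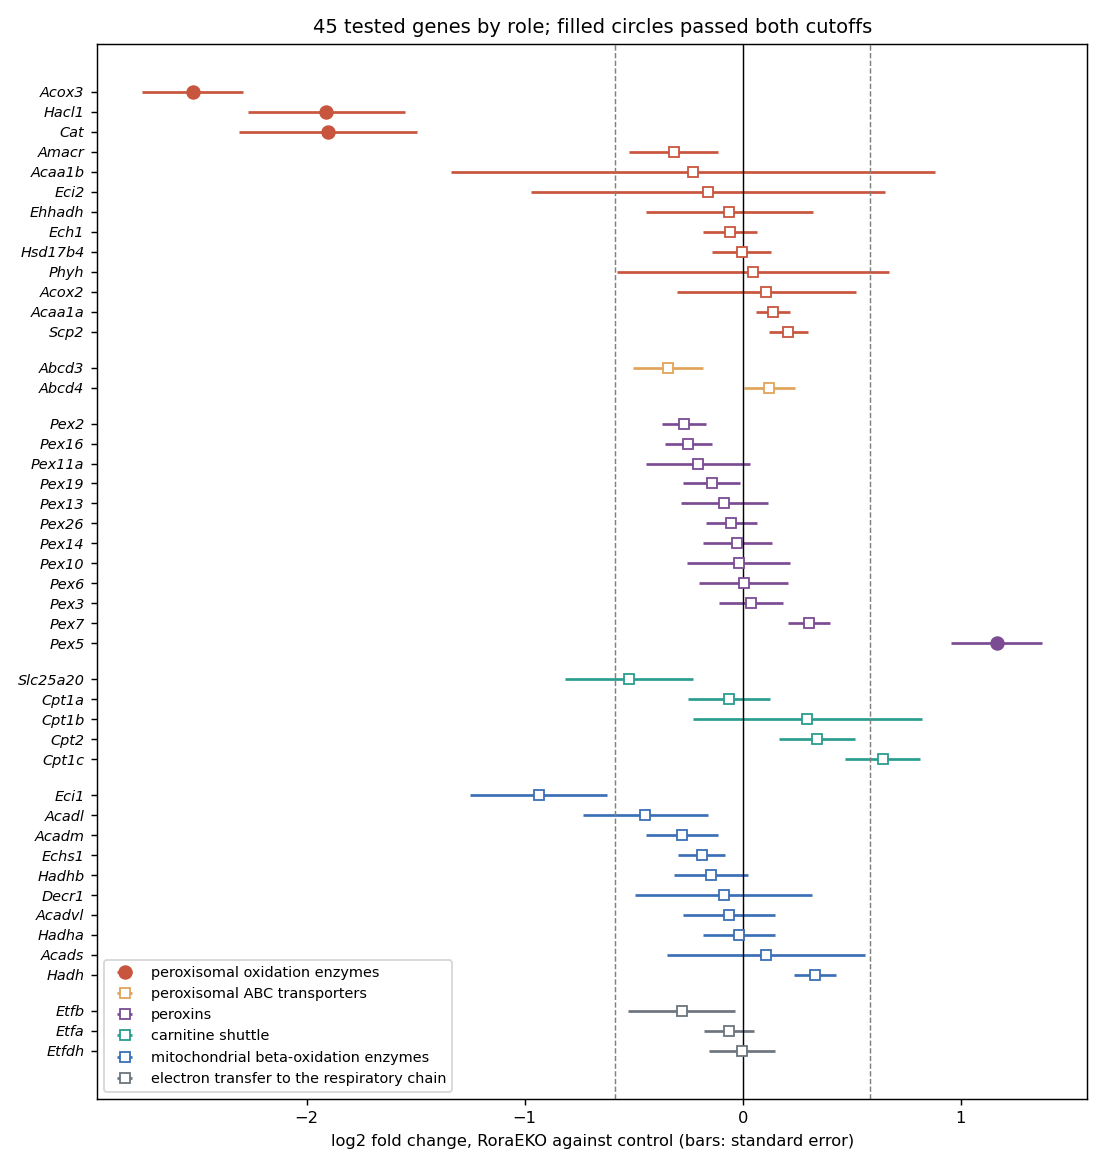
Log2 ratio of RoraEKO against control on the horizontal axis for the 45 genes tested, ordered by role, with bars for the standard error (n = 4 libraries per genotype) and dashed lines at a fold change of 1.5. Filled circles passed both cutoffs. *Acox3*, *Hacl1* and *Cat* sit far to the left at -2.52, -1.91 and -1.90, *Pex5* sits at 1.16, and most of the others lie between the dashed lines.

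The promoters of these 4 genes are shown because they are the genes of the set that passed the test. Each runs from 250 bases before to 50 bases after the start of the canonical transcript, 5′ to 3′ on the gene's strand, in the GRCm39 assembly with GENCODE release M39 models. The windows are chr5:35740102-35740401 on the plus strand for *Acox3*, chr2:103315456-103315755 on the minus strand for *Cat*, chr14:31363168-31363467 on the minus strand for *Hacl1* and chr6:124391976-124392275 on the minus strand for *Pex5*. Capitals mark the nuclear receptor core AGGTCA.
Acox3: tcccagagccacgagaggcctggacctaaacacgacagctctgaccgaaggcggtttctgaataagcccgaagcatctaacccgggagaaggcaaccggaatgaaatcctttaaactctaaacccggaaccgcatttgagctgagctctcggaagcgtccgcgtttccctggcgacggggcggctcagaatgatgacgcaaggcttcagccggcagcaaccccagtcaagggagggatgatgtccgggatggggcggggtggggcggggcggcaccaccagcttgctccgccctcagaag
Cat: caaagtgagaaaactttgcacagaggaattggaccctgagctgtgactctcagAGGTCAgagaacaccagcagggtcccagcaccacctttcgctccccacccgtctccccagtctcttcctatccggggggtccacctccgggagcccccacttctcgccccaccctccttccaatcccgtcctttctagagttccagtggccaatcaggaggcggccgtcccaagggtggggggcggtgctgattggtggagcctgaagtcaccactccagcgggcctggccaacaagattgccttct
Hacl1: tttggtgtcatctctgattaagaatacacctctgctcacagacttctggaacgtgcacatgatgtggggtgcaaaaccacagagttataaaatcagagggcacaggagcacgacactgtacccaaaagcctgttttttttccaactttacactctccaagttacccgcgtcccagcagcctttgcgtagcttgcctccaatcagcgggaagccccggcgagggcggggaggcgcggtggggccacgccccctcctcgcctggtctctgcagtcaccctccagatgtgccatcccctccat
Pex5: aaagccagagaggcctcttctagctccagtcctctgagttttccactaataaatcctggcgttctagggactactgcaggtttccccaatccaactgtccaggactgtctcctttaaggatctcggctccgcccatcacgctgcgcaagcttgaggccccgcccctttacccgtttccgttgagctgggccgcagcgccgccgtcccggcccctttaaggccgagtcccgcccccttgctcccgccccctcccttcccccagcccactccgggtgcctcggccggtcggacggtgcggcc

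Letters of 4 motifs were searched on both strands of the 300-base windows, and these were the core AGGTCA, the ROR response element (a stretch rich in adenine and thymine before the core), the DR1 element bound by PPAR and RXR (a direct repeat of the core), and the E-box of clock factors, CACGTG. A DR1 match always holds AGGTCA, as does a ROR response element with that core, so that the counts overlap. AGGTCA was present in the window of *Cat*, from base -197 to base -192 on the plus strand of the gene, and none of the 4 motifs was found in the windows of *Acox3*, *Hacl1* and *Pex5*. Over the 45 genes, 12 windows held AGGTCA (26.7%), beside 1743 of 13115 windows of all genes tested (13.3%), 75 of the 421 windows of genes called lower (17.8%) and 44 of the 301 of genes called higher (14.6%). The 12 were *Abcd3*, *Acadvl*, *Acox2*, *Amacr*, *Cat*, *Cpt1a*, *Cpt1b*, *Cpt1c*, *Echs1*, *Hadha*, *Pex2* and *Scp2*, of which only *Cat* was called. CACGTG stood in 3 of the 45 windows (*Acox2*, *Cpt1b* and *Etfa*, 6.67%, beside 9.88% of all windows). Neither the ROR response element nor DR1 was found in any of the 45, and both were rare in all windows, at 0.267% and 0.0305%. A match is a description of letters in this window, and its absence says nothing of sites elsewhere.

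*Acox3* codes for acyl-CoA oxidase 3, the peroxisomal enzyme that starts the β-oxidation of 2-methyl-branched acyl-CoA such as pristanoyl-CoA (ENSMUSG00000029098, chromosome 5 from 35740326 to 35772717). It was at 40.5, 57.3, 46 and 82.4 CPM in controls A1, B1, C1 and C6, and at 10.4, 9.74, 8.72 and 10.5 CPM in RoraEKO A3, B4, C2 and C3. Every RoraEKO library lay far below the lowest control, and the 4 mutant libraries were close together while the controls spread. The level fell from 56.5 ± 18.6 to 9.85 ± 0.824 CPM (SD, n = 4 each), or to 17.4% of control, with a log2 ratio of -2.52 (SE 0.232, quasi-likelihood adjusted p = 0.000309 in edgeR). It was the largest change of the 45 genes and was called lower under all 16 alternatives tried, which include leaving out 1 or both of the controls that expressed *Xist*. Exons of *Acox3* share 767 bases with *4931431C16Rik* and 420 bases with *Gm72017*, both on the opposite strand, and whether strand was used in counting is not stated.

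*Cat*, catalase, decomposes hydrogen peroxide and is the classical marker enzyme of peroxisomes (ENSMUSG00000027187, chromosome 2 from 103284194 to 103316185). Controls A1, B1, C1 and C6 were at 262, 365, 280 and 501 CPM, and RoraEKO A3, B4, C2 and C3 at 108, 42.5, 121 and 105 CPM. The genotypes were well apart, and RoraEKO B4 was the lowest of all. The RoraEKO mean was 26.8% of the control mean, which is 3.74-fold lower (log2 ratio -1.90, SE 0.409, quasi-likelihood adjusted p = 0.00908 in edgeR). Without the 2 controls that expressed *Xist*, an alternative chosen after seeing the data, the log2 ratio was -1.69 and the adjusted p 0.0582 in the same test, and the gene was no longer called. With the *Xist* level as a covariate it was called, at -1.70 (adjusted p = 0.0399, same edgeR test).

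*Hacl1* codes for 2-hydroxyacyl-CoA lyase 1, which cleaves 2-hydroxy acyl-CoA in peroxisomal α-oxidation of phytanic acid and of 2-hydroxy fatty acids (ENSMUSG00000021884, chromosome 14 from 31320681 to 31363243). It was scarce, at 7.27, 9.56, 6.20 and 8.67 CPM in controls A1, B1, C1 and C6 and at 3.33, 1.03, 1.98 and 2.2 CPM in RoraEKO A3, B4, C2 and C3. The highest mutant library was below the lowest control, on counts that ran from 25 to 231 per library. *Hacl1* fell from 7.93 ± 1.49 to 2.13 ± 0.945 CPM (SD, n = 4 each), 3.76-fold (log2 ratio -1.91, SE 0.36, quasi-likelihood adjusted p = 0.00757 in edgeR). Without the 2 controls that expressed *Xist* its log2 ratio was -1.95 and its adjusted p 0.0504 in that test, and with the *Xist* level as a covariate -1.97 and 0.0243. The annotation gives 1540 exonic bases of *Hacl1* to *Gm49387* on the same strand as well, with which the counting may have shared reads, and 116 to *Btd* on the opposite strand.

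*Pex5* codes for the receptor that binds the C-terminal targeting signal of matrix enzymes in the cytosol and carries them through the peroxisomal membrane (ENSMUSG00000005069, chromosome 6 from 124373564 to 124392103). Controls A1, B1, C1 and C6 were at 19.0, 14.2, 16.7 and 21.5 CPM, and RoraEKO A3, B4, C2 and C3 at 28.1, 40.7, 47.4 and 43.9 CPM. RoraEKO A3 was the nearest to the controls and still above all of them. The level rose from 17.9 ± 3.13 to 40.0 ± 8.39 CPM (SD, n = 4 each), 2.24-fold (log2 ratio 1.16, SE 0.21, quasi-likelihood adjusted p = 0.00652 in edgeR), and it was called higher under all 16 alternatives, with adjusted p from 2.4e-06 to 0.0341. *Pex5* shares 199 exonic bases with *D830015G05Rik* on the opposite strand.

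**Figure D2:**
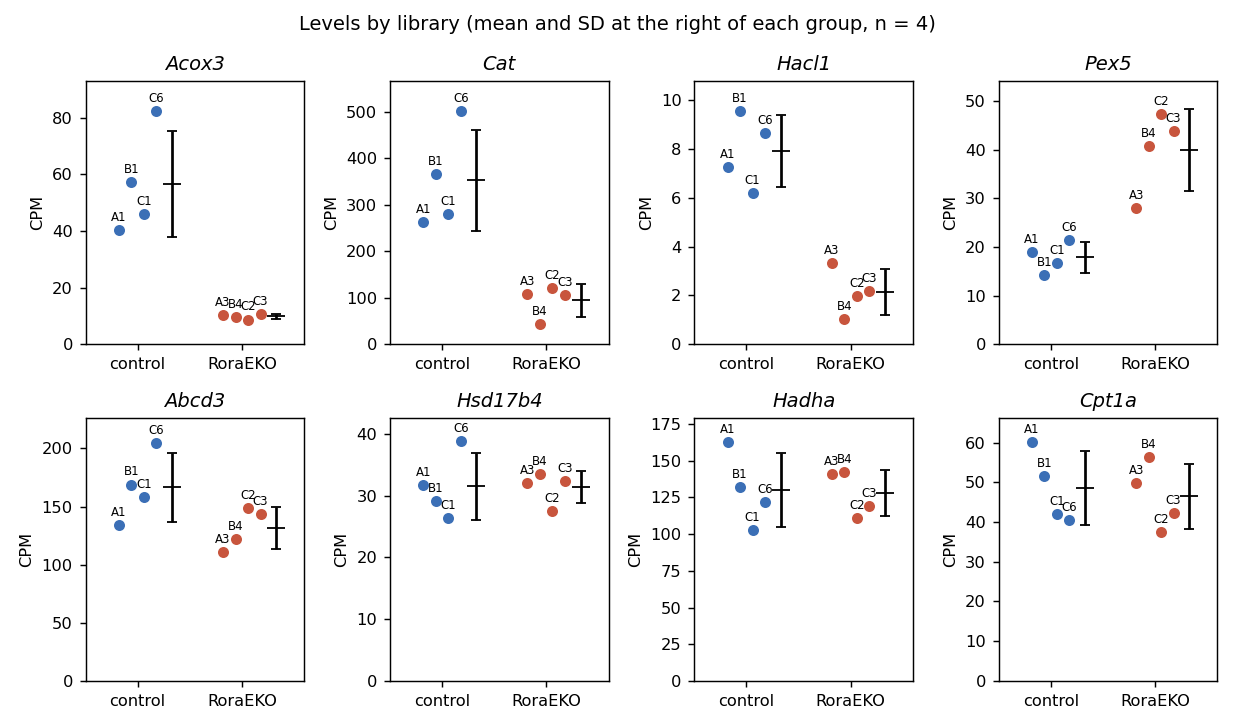
CPM in each library for the 4 genes that passed the cutoffs (upper row) and for 4 abundant genes of the pathways that did not (lower row), with mean and SD at the right of each genotype (n = 4). Every vertical axis starts at 0. In the upper row no RoraEKO point reaches the control range, with *Acox3* at 8.72 to 10.5 CPM against 40.5 to 82.4, while *Abcd3*, *Hsd17b4*, *Hadha* and *Cpt1a* overlap between the genotypes.

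The other 10 peroxisomal oxidation enzymes all stayed within the fold cutoff and none was called (smallest adjusted p 0.385, edgeR quasi-likelihood test). The steps of peroxisomal β-oxidation after the oxidase were among them. *Hsd17b4*, the D-bifunctional protein that hydrates and dehydrogenates the enoyl-CoA, was at 31.5 ± 5.37 CPM in controls and 31.4 ± 2.66 in RoraEKO (log2 ratio -0.00, SE 0.135). *Ehhadh*, the L-bifunctional protein, was scarce, with 7 to 22 counts per library. The thiolases that release acetyl-CoA were at 56.2 and 61.9 CPM for *Acaa1a* and at 71.3 and 82.4 CPM for *Scp2*, with log2 ratios of 0.14 and 0.21. *Acaa1b* is a close paralog of *Acaa1a*, so that reads could be split, and ran from 0.142 to 2.97 CPM in both genotypes together.

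The partners of the called enzymes in the same pathways were likewise not called. *Phyh*, phytanoyl-CoA hydroxylase, which makes the substrate of *Hacl1*, was at 28.3, 10.3, 4.50 and 7.66 CPM in controls A1, B1, C1 and C6 and at 15.9, 18.6, 7.56 and 10.5 CPM in RoraEKO A3, B4, C2 and C3. Its libraries varied more within a genotype than between genotypes (log2 ratio 0.05, SE 0.624). *Amacr*, the racemase that prepares 2-methyl-branched acyl-CoA for oxidation, was at 1.46 and 1.17 CPM (-0.32, SE 0.205). *Acox2*, the oxidase of bile acid intermediates and branched chains, was at 3.80 and 4.12 CPM (0.11, SE 0.41), and *Ech1*, which handles double bonds at odd positions, at 51.6 and 49.5 CPM (-0.06, SE 0.124). *Eci2*, which shifts double bonds into place for β-oxidation, was at 7.43 ± 6.82 and 6.69 ± 3.56 CPM.

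*Cat* was the most abundant of the 46 genes per length, at 95.8 CPM per kilobase in controls and 25.6 in RoraEKO. It made up 66.2% ± 5.62 of the summed level per kilobase of the 13 peroxisomal enzymes in controls and 36.0% ± 11.4 in RoraEKO, with the lowest share, 19.5%, in RoraEKO B4. The sum of the 13 enzymes was 143 ± 34.1 CPM per kilobase in controls and 69.7 ± 7.05 in RoraEKO, and without *Cat* the 12 others came to 47.3 ± 6.72 and 44.1 ± 3.74. The difference in summed level per length therefore lay almost wholly in *Cat*. The share restates the values of *Cat* and is a description, with no test. Merged exon length overstates the transcript in genes with long alternative exons, so that levels per length are approximate.

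**Figure D3:**
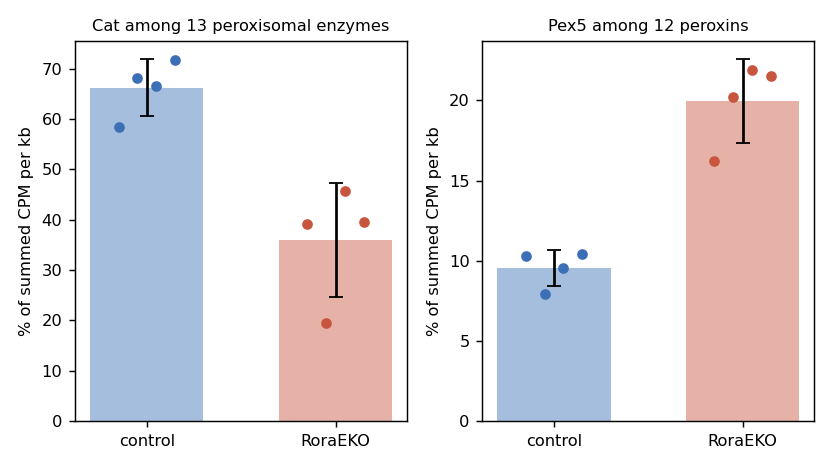
Share, in % of summed CPM per kilobase, of *Cat* among the 13 peroxisomal oxidation enzymes and of *Pex5* among the 12 peroxins. Bars are means with SD (n = 4), points are libraries, and each axis starts at 0. *Cat* goes from 66.2% in control to 36.0% in RoraEKO and *Pex5* from 9.54% to 19.9%.

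Among the ABC transporters of the set, *Abcd3*, the peroxisomal transporter of branched chains and bile acid precursors, was the most abundant per length of the 3 (23.9 CPM per kilobase in controls). It was at 134, 169, 158 and 205 CPM in controls A1, B1, C1 and C6 and at 111, 122, 149 and 144 CPM in RoraEKO A3, B4, C2 and C3. The genotypes overlapped (log2 ratio -0.34, SE 0.161, quasi-likelihood adjusted p = 0.3 in edgeR). *Abcd4*, a member of the family that acts in cobalamin transport from lysosomes, was at 6.67 and 7.25 CPM (0.12, SE 0.117). *Abcd2* reached 0.3 CPM at most and was not tested.

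*Pex5* was the only 1 of the 12 peroxins called, and the other 11 stayed within the fold cutoff, with log2 ratios from -0.27 to 0.30. *Pex7*, the receptor for the N-terminal targeting signal and a binding partner of *Pex5* protein, was at 10 ± 0.876 and 12.3 ± 1.35 CPM (0.30, SE 0.0964, quasi-likelihood adjusted p = 0.251 in edgeR). The docking and translocation components that receive the loaded receptor were not called, with *Pex13* at 38.3 and 36.1 CPM (-0.08, SE 0.201) and *Pex14* at 26.8 and 26.3 CPM (-0.02, SE 0.156). *Pex2*, a ubiquitin ligase of the membrane that helps recycle the receptor, was at 9.06, 9.56, 11.6 and 9.31 CPM in controls A1, B1, C1 and C6 and at 7.31, 8.05, 8.87 and 8.54 CPM in RoraEKO A3, B4, C2 and C3. These values did not overlap but were close (-0.27, SE 0.101, quasi-likelihood adjusted p = 0.349 in edgeR). Its partner ligase *Pex10* was at 8.08 and 7.96 CPM, *Pex6*, an ATPase that pulls the receptor back out, at 14.9 in both genotypes, and *Pex26*, its membrane anchor, at 14 and 13.5 CPM.

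The peroxins of membrane assembly and division were not called either. *Pex3*, *Pex16* and *Pex19*, which insert membrane proteins, were at 27.1, 16.9 and 24.6 CPM in controls and at 27.8, 14.2 and 22.3 CPM in RoraEKO, and *Pex11a*, which elongates peroxisomes before they divide, was at 7.98 and 6.94 CPM. Per length, *Pex13* was the most abundant peroxin in controls at 7.33 CPM per kilobase and *Pex5* in RoraEKO at 7.93. The summed level of the 12 peroxins was 36.9 ± 2.82 CPM per kilobase in controls and 39.4 ± 3.53 in RoraEKO, of which *Pex5* made up 9.54% ± 1.15 and 19.9% ± 2.62 (SD, n = 4 each, a description with no test).

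**Figure D4:**
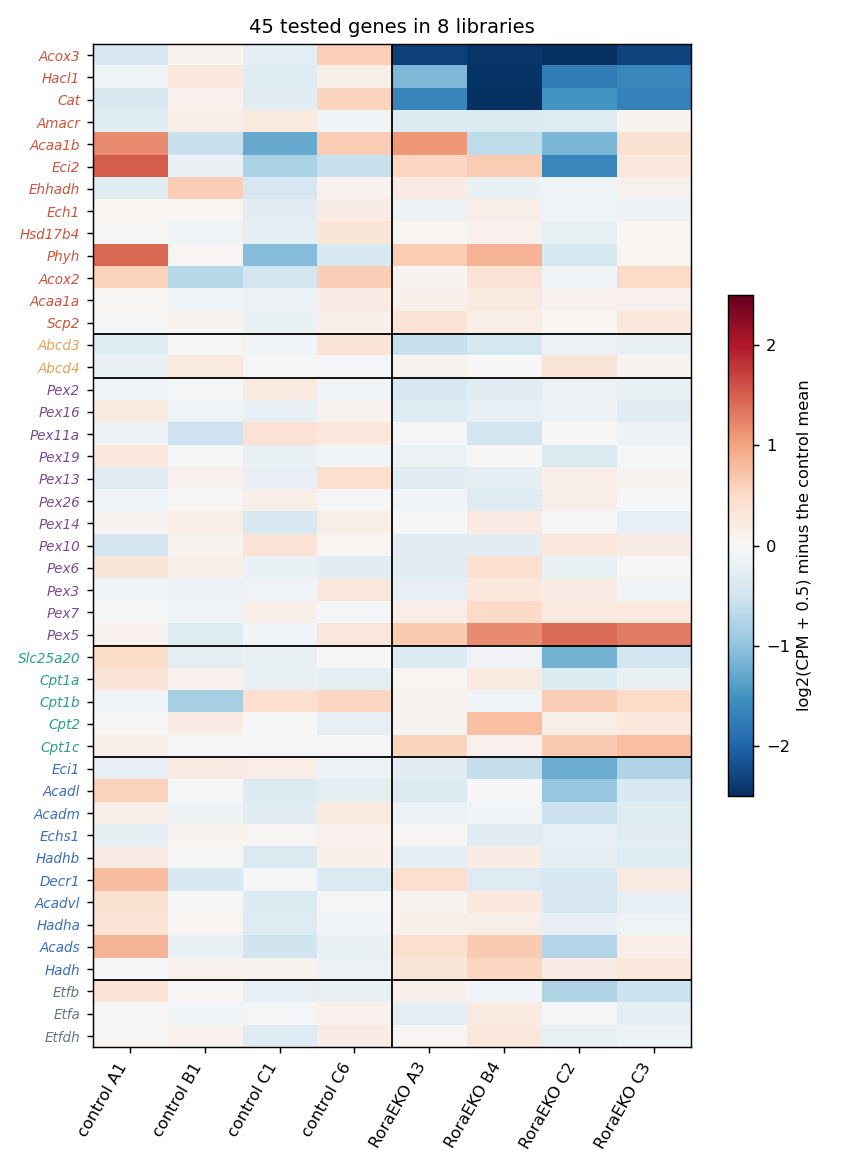
Log2(CPM + 0.5) of the 45 genes tested in each of the 8 libraries, less the mean of the controls, with blue below and red above that mean and names coloured by role. *Acox3*, *Hacl1* and *Cat* are blue in all 4 RoraEKO libraries and *Pex5* is red in all 4, while *Acaa1b*, *Eci2* and *Phyh* spread widely among the controls.

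In the carnitine shuttle none of the 5 genes was called. *Cpt1a*, the carnitine palmitoyltransferase that sets the rate of mitochondrial entry and the most abundant of the 5 per length in controls (4.44 CPM per kilobase), was at 48.6 ± 9.22 and 46.5 ± 8.28 CPM with a log2 ratio of -0.06 (SE 0.186). *Cpt1c*, the form best known from brain, was at 1.98, 1.69, 1.70 and 1.69 CPM in controls A1, B1, C1 and C6 and at 2.81, 1.93, 3.04 and 3.30 CPM in RoraEKO A3, B4, C2 and C3. Only RoraEKO B4 lay within the control range, below control A1 (log2 ratio 0.64, SE 0.172, quasi-likelihood adjusted p = 0.17 in edgeR). *Cpt1b*, the muscle form, was at 0.956 and 1.19 CPM and shares 2744 exonic bases with *Gm44502* on the same strand.

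The inner membrane steps of the shuttle had opposite signs without passing the test. *Slc25a20*, the carnitine-acylcarnitine carrier, was at 17.4, 10.5, 11 and 12.5 CPM in controls A1, B1, C1 and C6 and at 9.85, 11.8, 5.30 and 8.94 CPM in RoraEKO A3, B4, C2 and C3 (log2 ratio -0.52, SE 0.294, quasi-likelihood adjusted p = 0.321 in edgeR). *Cpt2*, which restores acyl-CoA in the matrix, was at 14.7, 16.9, 14.8 and 12.8 CPM and at 15.5, 25.1, 16.4 and 17.8 CPM in the same order (0.34, SE 0.175, quasi-likelihood adjusted p = 0.349 in edgeR). Both genes overlapped between the genotypes. The summed level of the 5 genes was 11.1 ± 1.3 and 11.6 ± 2.06 CPM per kilobase.

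None of the 10 enzymes of mitochondrial β-oxidation was called, and 9 stayed within the fold cutoff. The exception in size was *Eci1*, the mitochondrial enoyl-CoA isomerase for unsaturated chains, at 1.6, 2.30, 2.22 and 1.69 CPM in controls A1, B1, C1 and C6 and 1.5, 1.11, 0.530 and 0.949 CPM in RoraEKO A3, B4, C2 and C3. The genotypes did not overlap, with A1 and A3 nearly touching, and the level was low (log2 ratio -0.94, SE 0.312, quasi-likelihood adjusted p = 0.161 in edgeR). *Hadh*, the dehydrogenase of short 3-hydroxyacyl-CoA, was at 58.5, 65.9, 65.2 and 54.8 CPM in controls and at 74.8, 88.9, 70.5 and 73.4 CPM in RoraEKO, in the same order. All 4 RoraEKO libraries were above all controls, with a log2 ratio of 0.33 (SE 0.0977, quasi-likelihood adjusted p = 0.155 in edgeR).

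The trifunctional protein, which carries long chains through the last steps, showed no difference beyond its spread. *Hadha*, its α subunit and the most abundant of the 10 per length (13.6 CPM per kilobase in controls), was at 130 ± 25.4 and 128 ± 15.7 CPM (log2 ratio -0.02, SE 0.165), and *Hadhb*, its β subunit, at 59.9 ± 9.87 and 54.2 ± 9.17 CPM (-0.14, SE 0.17). The 2 genes overlap on opposite strands by 932 exonic bases. The acyl-CoA dehydrogenases, ordered from very long to short chains, were at 40.8 and 39.0 CPM for *Acadvl*, 18.6 and 13.6 CPM for *Acadl*, 22.5 and 18.6 CPM for *Acadm* and 5.89 and 6.36 CPM for *Acads* in controls and RoraEKO. Of these *Acadl* had the largest difference, with 27, 17.9, 14.1 and 15.3 CPM in controls A1, B1, C1 and C6 and 13.8, 17.9, 9.15 and 13.6 CPM in RoraEKO A3, B4, C2 and C3, which overlapped (-0.45, SE 0.287, quasi-likelihood adjusted p = 0.406 in edgeR). *Echs1*, the short-chain enoyl-CoA hydratase, was at 36.1 and 31.7 CPM, and *Decr1*, the dienoyl-CoA reductase, at 1.85 and 1.76 CPM.

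The electron transfer genes were alike in showing no call. *Etfa* and *Etfb*, the subunits of the electron transfer flavoprotein, were at 47.2 and 40.2 CPM in controls and 45.2 and 33.2 CPM in RoraEKO, and *Etfdh*, the dehydrogenase that hands the electrons to ubiquinone, at 15.8 CPM in both. *Etfb* was the most abundant of the 18 mitochondrial genes per length, at 25.8 CPM per kilobase in controls and 21.3 in RoraEKO (log2 ratio -0.28, SE 0.244), and shares 617 exonic bases with *Etfbl* on the same strand. The log2 ratios of the 18 mitochondrial genes ran from -0.94 to 0.64 with a median of -0.06, and that of the 27 peroxisomal genes was also -0.06, close to the -0.04 of all genes.

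The genes differed in how much they varied among controls. The ratio of the highest to the lowest control was 1.49 at the median of the 45 genes, and it exceeded 2.5 (a limit chosen after the values were seen) in 8. Among the controls, 5 of the 8 were highest in control A1, namely *Acaa1b* (20.9), *Phyh* (6.29), *Eci2* (5.54), *Acads* (2.79) and *Decr1* (2.75). The others were *Cpt1b* (5.36) and *Acox2* (2.9), both highest in control C6 and lowest in control B1, and *Ehhadh* (3.63), highest in control B1 and lowest in control C1. The summed CPM of 7 sebocyte markers (*Awat1*, *Awat2*, *Dgat2l6*, *Elovl3*, *Mc5r*, *Cidea* and *Scd3*, none of which was called and none at 0 in any control) was 240, 39.6, 24.4 and 79.4 in controls A1, B1, C1 and C6 and 89.3, 74.8, 17.2 and 68.3 in RoraEKO A3, B4, C2 and C3, a ratio of 9.85 among controls. Control C1 was the lowest control for the marker sum and for 4 of the 5 genes, and RoraEKO C2 was the lowest of its genotype for the sum and for all 5. These 5 were set apart by being highest in control A1, so that their match with the marker sum there follows from the choice, and *Cpt1b* and *Ehhadh* did not follow the sum. *Cpt1b* was at 0.761 CPM in control A1 and highest of all libraries in RoraEKO C2, at 1.59 CPM. Counts per library were low for *Acaa1b* (3 to 78), *Cpt1b* (5 to 39), *Ehhadh* (7 to 22) and *Decr1* (22 to 87). The 4 hair shaft markers were also highest in control A1, at 2200 CPM beside 327 to 628 in the other controls. Whether sebocytes or hair follicles in the peeled sheet account for the spread was not tested.

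**Figure D5:**
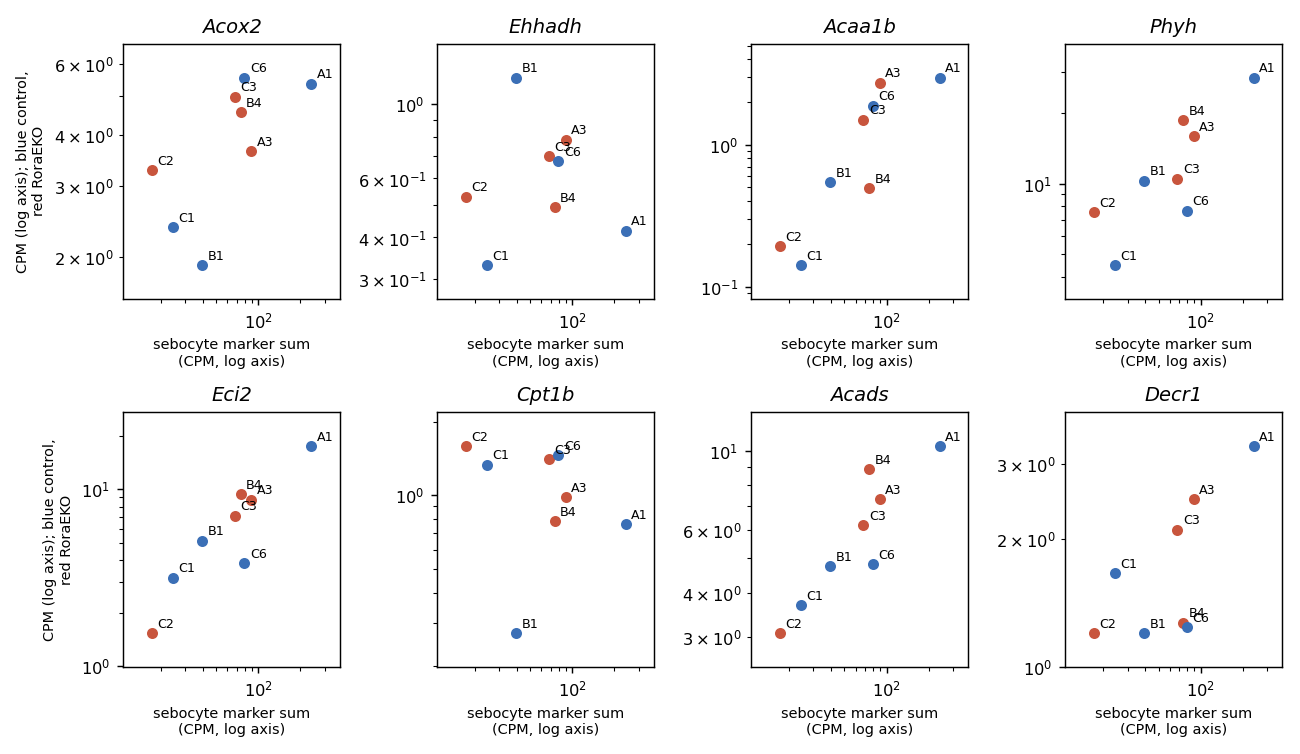
CPM of the 8 genes with a control ratio over 2.5, against the summed CPM of 7 sebocyte markers in the same library, both on log axes, with controls in blue and RoraEKO in red. Control A1, with 240 CPM of sebocyte markers, has the highest value in 5 of the 8 panels, but not in those of *Acox2*, *Ehhadh* and *Cpt1b*, and RoraEKO C2, with 17.2 CPM of markers, has the highest value in the panel of *Cpt1b*.

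Of 74 further genes of these pathways, 62 were tested with edgeR. In the quasi-likelihood test 4 were called lower (6.45%, beside 3.22% of all genes) and 0 higher. An unadjusted p under 0.05 in that test was reached by 14 of the 62, beside 2390 of all 13147 genes. DESeq2 called the same 4 lower and 3 higher, which were *Acad11*, *Fabp5* and *Cd36*. It gave an adjusted p to 29 other peroxisomal genes, 20 other mitochondrial genes and 16 regulators and PPAR targets. Over all 15854 genes with an adjusted p, DESeq2 called 573 lower and 518 higher. Among 29 other peroxisomal genes tested, the 2 called were *Pxmp4*, a peroxisomal membrane protein, and *Mlycd*, malonyl-CoA decarboxylase, which removes the inhibitor of *Cpt1* enzymes. *Pxmp4* was at 91.7, 66.9, 60.4 and 67.3 CPM in controls A1, B1, C1 and C6 and at 44.4, 31.8, 28.3 and 30.3 CPM in RoraEKO A3, B4, C2 and C3, all below every control (log2 ratio -1.09, SE 0.194, quasi-likelihood adjusted p = 0.00746 in edgeR), and was called under all 16 alternatives. *Mlycd* fell, with 3.95 ± 0.4 CPM in controls and 2.22 ± 0.288 CPM in RoraEKO (mean ± SD, n = 4 libraries, log2 ratio -0.83, SE 0.109, quasi-likelihood adjusted p = 0.0324 in edgeR), a call that held in 6 of the 16 alternatives. Of the 8 that left out a library it held only without control A1, and without any of the other 7 the adjusted p in that test was 0.052 to 0.127.

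Among the 20 other mitochondrial genes, *Acat1*, the thiolase that acts on acetoacetyl-CoA, was called lower. *Acat1* fell, with 46.2 ± 4.19 CPM in controls and 29.5 ± 4.74 CPM in RoraEKO (mean ± SD, n = 4 libraries, log2 ratio -0.65, SE 0.135, quasi-likelihood adjusted p = 0.0241 in edgeR), and was called in 8 of the 16 alternatives. Of the 8 that left out a library it was called only without control A1 or RoraEKO A3, with an adjusted p of 0.0677 to 0.102 in that test without any of the other 6. It shares 2031 exonic bases with *Npat* on the opposite strand. The 20 genes had a median log2 ratio of -0.26, beside -0.04 over all genes, and the genotypes did not overlap in 6 of them (30.0%, beside 12.9%).

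Of the 20 regulators of these pathways and targets of PPAR receptors, 13 were tested and none was called in the edgeR quasi-likelihood test. An unadjusted p under 0.05 in that test was reached by 3 of the 13, beside 2390 of all 13147 genes. DESeq2 gave an adjusted p to 16 of the 20. It called *Fabp5*, an epidermal fatty acid binding protein (1670 and 3370 CPM), and *Cd36*, a fatty acid uptake receptor (1.13 and 2.58 CPM), higher. *Ppara*, the receptor that induces peroxisomal genes in liver, had too few counts to test, at 0.143 and 0.0794 CPM. *Ppard*, the abundant PPAR of the epidermis, was at 85.5 ± 11.2 and 102 ± 14.1 CPM (log2 ratio 0.25, SE 0.137, quasi-likelihood adjusted p = 0.415 in edgeR), and *Rxra*, its partner, at 239 and 253 CPM. *Plin2*, a PPAR target that coats lipid droplets, was at 49.8 and 51.4 CPM (0.04, SE 0.574).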

How the data were processed

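Epidermis was peeled from P4 back skin after a brief heat treatment, and polyA-selected TruSeq Stranded libraries were sequenced in pairs. Per the study's methods and the submitters' processing notes, the authors converted reads with bcl2fastq 2.20.0.422, removed adapters with Skewer, used STAR 2.5.3a to align to GRCm39 and estimated counts with RSEM, and they used edgeR 3.28.0 for their own comparison. The annotation release and the strand setting are not given in the sources used here. The deposited values are RSEM expected counts per gene of 8 libraries, unscaled for depth or length.

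Here the expected counts were rounded and tested with edgeR 4.0.16 (R 4.3.3): filterByExpr, TMM factors, no covariates, the quasi-likelihood test at an adjusted p of 0.05 over 13147 genes and a fold change of 1.5. Standard errors are for the gap between the genotypes' averages of log2 CPM, with a prior count of 2. Symbols, positions and merged exon lengths came from GENCODE release M39, in which 54749 of the 55416 identifiers had a symbol. A floor of 3 counts covers counting error only. The fit was tested on simulated data. Library totals were 17286903 to 26705533, so that *Hacl1*, *Eci1*, *Ehhadh*, *Acaa1b*, *Cpt1b*, *Cpt1c*, *Amacr* and *Decr1*, among others, rest on few counts.

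Of the 46 genes, all that were called are given with values in every library, as are 8 further genes with the smallest adjusted p whose genotypes do not overlap or whose role has no called gene. The most abundant gene per length of each role is also named. *Phyh* and the sebocyte comparison were added after their values were seen. The values of 2 genes of the wider pathway lists are not reported here. The genes and lists were chosen with earlier results of these data known. Alternatives were RLE factors, DESeq2 1.42.0, the newer quasi-likelihood form, other filters on low counts, the title letter as a block, *Xist* as a covariate, each library left out, and, after seeing the data, both *Xist*-expressing controls left out.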

Additional observations from a re-analysis of the deposited data

Results flagged for a closer look

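Within each genotype the 4 libraries of the 45 tested genes and of *Rora* were searched for a single library that stood apart from the other 3. The measure was Dixon's ratio at the 95% level, which chance passes in about 5% of groups. Of 92 groups, 9 passed. Control A1 was the high library for *Eci2* (17.6 CPM, the other controls at 3.17 to 5.14), *Acads* (10.3 CPM, others 3.69 to 4.80) and *Cpt1c* (1.98 CPM, others 1.69 to 1.70). Control C6 was high for *Pex3* (32.9 CPM, others 24.6 to 25.8) and control C1 for *Pex7* (11.3 CPM, others 9.40 to 9.72). RoraEKO B4 was high for *Acaa1a* (66.0 CPM, others 60.3 to 61.0), *Ech1* (57.8 CPM, others 46.3 to 47.2) and *Hadhb* (67.8 CPM, others 47.6 to 50.7), and RoraEKO C3 for *Amacr* (1.55 CPM, others 1.03 to 1.06). None of these 9 genes passed the cutoffs between the genotypes.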

How the results depend on the processing

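The 3 genes lower and the 1 higher were called alike under the 7 other planned settings, and their numbers ran from 3 to 3 lower and 1 to 1 higher as each of the 8 libraries was left out. Without both controls that expressed *Xist* the number lower was 1, *Acox3*. *Rora* was uncalled throughout (-0.23 to 0.21). No log2 fold change of a called gene changed sign. The number of all genes called (423 lower, 302 higher) was 573 and 518 with DESeq2, 300 and 184 with the *Xist* covariate, 167 and 147 without both controls that expressed *Xist*, and 283 to 513 and 174 to 383 with a library left out. The title letter as a replicate block gave 3 lower and 1 higher among the 46, and 579 and 420 over all genes. Deviations of libraries with the same letter correlated at 0.483 (A1 with A3), 0.0498 (B1 with B4) and, for letter C, 0.131 to 0.436 across the genotypes, 0.0568 between C2 and C3 and -0.048 between C1 and C6, and the labels give the letters no meaning, so that the libraries were not treated as paired. Genes at a few CPM or less, among them *Eci1*, *Cpt1b*, *Cpt1c*, *Ehhadh*, *Acaa1b*, *Amacr* and *Decr1*, are limited by counting error. A p that misses the threshold does not show that a gene was level.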
